A study of Mus musculus with 5 samples.

Results

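Il7r, Flt3, Jak1, Jak3, Stat5a, Stat5b, Cish, Socs1, Socs2 and Socs3 were taken as the core of cytokine signalling through Stat5, and H3K27ac was described at these 10 genes out of 21883 protein-coding genes. The genes were chosen by name, as receptors, kinases, the Stat5 factors and their feedback targets. H3K27ac, acetylation of lysine 27 of histone H3, is carried by active promoters and enhancers, and it was mapped by ChIPmentation, in which Tn5 transposase tags chromatin held on the antibody. The cells came from mouse bone marrow and were sorted as CD45.2+, Lineage-, Sca1+ and Kit+, a gate labelled HSC/MPP (haematopoietic stem cells and multipotent progenitors). All 4 H3K27ac libraries and the 1 input library carried the genotype Mll3/4 deleted, meaning loss of the histone methyltransferases MLL3 and MLL4. Age, strain, the deleting Cre and the number of animals are not given in the sources used here.

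The data are 1 list of 22948 peaks for these libraries together. It gives 1 value per peak and none per library, so no value below has a replicate error, no test was made, and no other genotype was compared. A peak has a signal value, read as the authors' fold enrichment over background, and a −log10 q-value. Over the whole list the signal value ran from 1.44 to 34.05 with a median of 3.27, and the median width was 854 bp. Depth is unknown, because the list holds no read counts. A gene without a peak had none that passed the authors' calling, which does not show that acetylation was absent. The cells were measured in bulk, so a weak peak in all cells and a strong peak in few cells cannot be told apart.

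Interleukin 7 binds a receptor made of the alpha chain encoded by Il7r and the common gamma chain. The kinase JAK1 sits on the alpha chain and JAK3 on the gamma chain. Once active they phosphorylate STAT5A and STAT5B, which pair, enter the nucleus and bind palindromic DNA sites with the letters TTCNNNGAA. CIS, encoded by Cish, and the SOCS proteins are induced by this signal and dampen it. FLT3 is a receptor tyrosine kinase for FLT3 ligand on multipotent and lymphoid-primed progenitors. Together the receptors carry progenitors towards the lymphoid lineages, and interleukin 7 is required for B-cell development in the mouse.

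Of the 10 genes, 7 had a peak within 1 kb of a gene end, namely Il7r, Flt3, Jak1, Stat5a, Stat5b, Socs1 and Socs2. Among all protein-coding genes this share was 36.2%. The same 7 had a peak inside the gene, against 41.3% of all genes. Cish, Jak3 and Socs3 had neither. All 10 had a peak in the gene or within 50 kb of it, against 68.7% of all genes. Restricting the end peaks to a signal value of at least 4 left Il7r, Flt3, Jak1, Socs1 and Socs2, with a background of 23.2%. With a window of 500 bp, 4 members had an end peak. With q-values of at most 0.05, 5 members did, since the end peak shared by Stat5a and Stat5b was lost. The shares of all genes under these 2 settings are not given here.

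RefSeq promoter windows (GRCm38.p6, 250 bases before to 50 after an annotated start) were found for 9 of the 10 genes, with 11 starts in all. Socs2 had no entry. The windows of 4 genes are shown up to base 30 from the start, 5′ to 3′ on the strand of the gene. Il7r and Flt3 are shown as the receptors, and their whole windows lay under a peak, as did that of a Stat5b start. Cish and Socs3 are shown because their windows hold the Stat5 letters and lay far from any peak. Capitals mark each match to TTCNNNGAA, a palindrome that reads the same on both strands.

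Il7r, chr15:9529847-9530126, minus strand: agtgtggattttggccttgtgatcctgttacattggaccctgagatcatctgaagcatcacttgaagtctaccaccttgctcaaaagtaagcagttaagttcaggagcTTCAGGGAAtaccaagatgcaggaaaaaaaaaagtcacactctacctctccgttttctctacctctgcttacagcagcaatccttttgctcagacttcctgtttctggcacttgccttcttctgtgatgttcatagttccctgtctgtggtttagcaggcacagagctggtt

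Flt3, chr5:147400460-147400739, minus strand: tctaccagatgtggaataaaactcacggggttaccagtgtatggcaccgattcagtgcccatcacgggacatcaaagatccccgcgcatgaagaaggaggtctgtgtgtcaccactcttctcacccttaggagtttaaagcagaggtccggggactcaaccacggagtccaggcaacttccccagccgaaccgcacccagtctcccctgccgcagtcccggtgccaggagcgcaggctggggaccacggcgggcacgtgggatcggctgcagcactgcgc

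Cish, chr9:107296409-107296688, plus strand: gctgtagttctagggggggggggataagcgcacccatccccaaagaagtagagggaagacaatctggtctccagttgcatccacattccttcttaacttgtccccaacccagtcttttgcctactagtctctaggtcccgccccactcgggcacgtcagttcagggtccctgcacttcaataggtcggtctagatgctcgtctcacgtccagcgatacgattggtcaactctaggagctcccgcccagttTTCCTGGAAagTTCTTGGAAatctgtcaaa

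Socs3, chr11:117969337-117969616, minus strand: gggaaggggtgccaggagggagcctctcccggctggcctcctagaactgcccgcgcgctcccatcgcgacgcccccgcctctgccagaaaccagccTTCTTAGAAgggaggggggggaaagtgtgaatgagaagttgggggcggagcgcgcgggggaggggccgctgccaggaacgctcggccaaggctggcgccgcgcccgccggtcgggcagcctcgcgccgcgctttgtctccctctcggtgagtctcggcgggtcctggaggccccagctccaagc

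The windows of Il7r, Cish and Socs3 held a match, so 3 of the 11 member windows did, against 7.69% of the 21262 windows of protein-coding genes. Positions are counted from 1 at the annotated start, with negative numbers before it. The Il7r match TTCAGGGAA began at -142 and the Socs3 match TTCTTAGAA at -154. Cish held 2 matches, TTCCTGGAA at 1 and TTCTTGGAA at 12, and 0.404% of all windows held 2 or more. TTCCTGGAA is also the only match among the members to the stricter palindrome TTCCNGGAA, which 1.17% of all windows held. Every TTCCNGGAA is also a TTCNNNGAA, so these counts overlap. The looser letters were in 6.60% of the windows with a peak within 1 kb of the start and in 8.35% of those without. A match is a run of letters and not a measured Stat5 site.

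Among the receptors, Il7r had the strongest peak at its start of any member. It lay at chr15:9523664-9530823, was 7160 bp wide, and had a signal value of 11.2 (−log10 q 41.8). It ranked 290 of 22948 by signal and 91 by width. Of the 7927 genes with an end peak, 3.23% had one at least this strong. The peak reached from before the start into the gene, covered all of the promoter window printed above, and was the only peak inside the gene.

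A further 12 peaks flanked Il7r. Downstream of the gene lay 9 of them, with summits 36.4 to 73.5 kb from the start, and upstream lay 3, with signal values from 2.69 to 3.92. The downstream group ranged from 2.17 to 9.37 with a median of 3.36. Its strongest peak, chr15:9459693-9463912, reached a signal value of 9.37 (−log10 q 31.3) and ranked 705. That peak and the neighbours on each side, chr15:9455700-9457838 (signal value 3.36) and chr15:9464156-9466958 (4.83), overlapped the next gene, Capsl. None of the 12 flanking peaks lay within 1 kb of an annotated start of another protein-coding gene. For 7 of the 13 peaks of the locus the nearest protein-coding gene was Capsl, for 3 it was Il7r and for 3 Spef2, so position alone does not assign them.

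Flt3 had its strongest peak far from its start. The peak at chr5:147337255-147343348 lay inside the gene with its summit 58.9 kb from the annotated start, towards the end of the gene. Its signal value was 13.3 (−log10 q 67.6), and it was 6094 bp wide. It ranked 104 of the 22948 peaks by signal, the highest rank in any of the 10 loci. The start of Flt3 carried a weaker peak, chr5:147398082-147401429, which ranked 2382 with a signal value of 6.58 (−log10 q 16.2).

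The Flt3 gene held 2 more peaks, at 33.5 kb from the start (chr5:147365343-147369029, signal value 5.05) and at 37.6 kb (chr5:147362553-147363551, signal value 3.27). The annotation used here gives no exons, so whether these peaks are intronic was not determined. Upstream lay 7 peaks, 18.2 to 48.9 kb from the start, with signal values from 2.56 to 5.39. The strongest of them, chr5:147429101-147431774, lay within 1 kb of the start of Pan3, and 6 of the 7 overlapped Pan3. No peak was found within 50 kb downstream of Flt3, where Urad and Cdx2 lie. All 11 peaks of the Flt3 locus had q-values at or below 0.05.

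**Figure D1:**
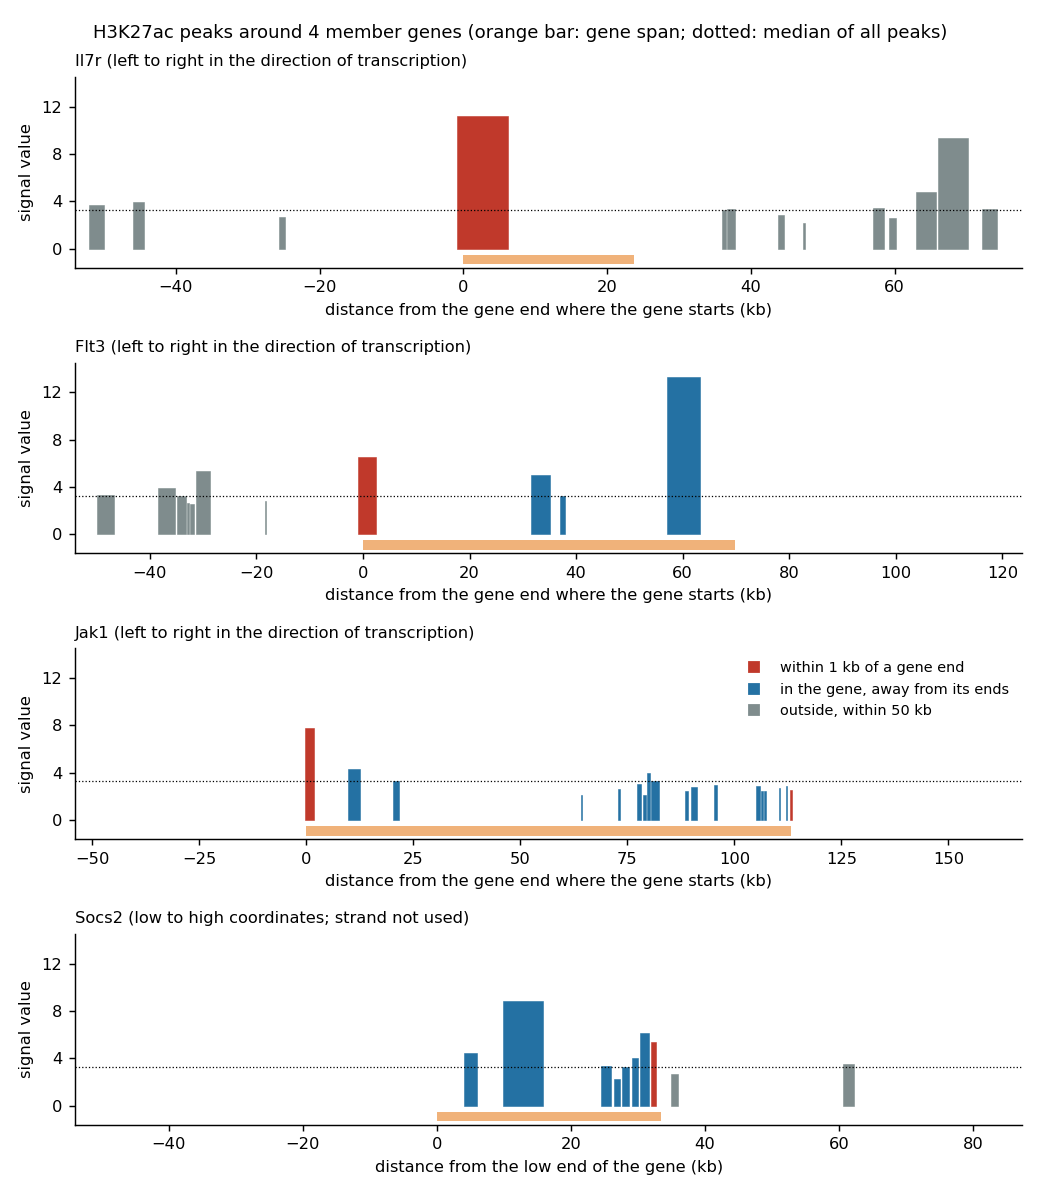
H3K27ac peaks around Il7r, Flt3, Jak1 and Socs2, with distance in kb on the x axis, the authors' signal value per peak as bar height, peak width to scale as bar width, and the gene as an orange bar. Il7r has its strongest peak at the start, Flt3 deep inside the gene, Jak1 a row of weak peaks far from the start, and Socs2 a broad peak of 8.85 inside the gene.

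The kinases differed in whether they had a peak in the gene or at its ends. Jak1, which serves many cytokine receptors, had 18 peaks, all within or touching the gene and none in the flanks. Only 0.274% of all protein-coding genes had as many peaks or more inside the gene. That count includes weak peaks: 7 of the 18 had q above 0.05 and 3 reached a signal value of 4. The share of genes in a stricter list is not given here. At 113 kb Jak1 is the longest of the 10 genes, and per 10 kb of gene it held 1.59 peaks, against 2.39 for Socs2, 0.573 for Flt3 and 5.78 for the short Socs1, which held 1 peak. The peak at the Jak1 start, chr4:101263555-101265472, reached a signal value of 7.81 (−log10 q 22.5).

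The Jak1 peaks fell into groups on either side of a stretch of 43.7 kb without a summit. The 3 peaks in the first 25 kb had signal values of 7.81, 4.34 (chr4:101252684-101255643) and 3.30 (chr4:101243682-101244959). The other 15 lay 64.4 to 113 kb from the start and were weak and narrow. Their signal values ranged from 2.14 to 4.02 (chr4:101184900-101185573) with a median of 2.74, and their median width was 649 bp. All 7 Jak1 peaks with q above 0.05 were in this far group. It includes the weak peak at the other end of the gene (chr4:101151800-101152189, signal value 2.51), where the end of Raver2 overlaps that of Jak1.

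Jak3, the partner kinase on the common gamma chain, had no peak in the gene or at its ends. Its nearest peaks were 30.1 kb away at chr8:71720649-71721235 (signal value 3.09) and 31.1 kb away at chr8:71721642-71725452 (signal value 5.73). Both overlapped Fcho1, and the stronger lay within 1 kb of the Fcho1 start.

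Stat5a and Stat5b, whose products are close relatives, lie side by side with 0.347 kb between the annotated gene ends, next to Stat3. Their only peak in the windows at the gene ends was a shared weak one at chr11:100859856-100860276, with a signal value of 2.45 (−log10 q 0.799, so q was above 0.05). Of the genes with an end peak, 98.1% had one at least this strong. Both genes have annotated starts further inside, and stronger peaks lay there.

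At Stat5a the peak chr11:100860562-100861958 had a signal value of 4.37 and began 78 bp after the second annotated start, while the weak shared peak ended 208 bp before it. At Stat5b a start inside the gene lay under the peak chr11:100822028-100823579, with a signal value of 5.69 (−log10 q 12.1). The other Stat5b start lay between narrow peaks of 3.18 (chr11:100850836-100851211), 255 bp upstream, and 3.00 (chr11:100850104-100850505), 76 bp downstream. The strongest peak within 50 kb of Stat5a, at chr11:100930349-100932468 with a signal value of 9.86, was inside Stat3. On the other side of Stat5b the strongest peak, chr11:100734776-100738178 with a signal value of 4.31, lay at the start of Rab5c. In all, 6 peaks were counted for both Stat5 genes.

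The feedback genes were split. Socs2, which restrains growth hormone and other cytokine signals, had 8 peaks in or at the ends of its 33.4 kb, and only 1.31% of genes held as many inside the gene. The strongest, chr10:95393824-95399802, was 5979 bp wide with a signal value of 8.85 (−log10 q 28.3), ranking 916 by signal and 169 by width. Towards the high end of the gene lay 6 peaks side by side, with signal values from 2.24 to 6.18. The strongest of these were chr10:95414197-95415554 (6.18) and the peak near that end, chr10:95415887-95416654 (5.39). Socs2 was the nearest protein-coding gene for all 10 peaks of its locus, 2 of which were in the flanks.

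Socs1, an inhibitor that binds JAK kinases directly, is 1.73 kb long and had 2 peaks within 1 kb of its start. The peak before the start, chr16:10785679-10786462, had a signal value of 5.42 (−log10 q 11.3), and the peak inside the gene, chr16:10784576-10784964, had 3.15. They left the start itself uncovered, with 143 bp to the upstream and 572 bp to the downstream peak. The other 3 peaks of the locus, with signal values from 2.34 to 4.20 (the highest at chr16:10741348-10742737), were 41.1 kb or more away inside Clec16a.

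Cish had a single peak within 50 kb. It lay 6.86 kb upstream at chr9:107288941-107289795, with a signal value of 4.31 (−log10 q 6.93), at the start of the neighbouring gene Mapkapk3. On the far side of Cish the next peak was 232 kb from the gene. Socs3, an inhibitor best known from interleukin 6 signalling, had its nearest peaks 43.7 and 44.5 kb away inside Pgs1 (chr11:118014010-118014543 and chr11:118014799-118015253), with signal values of 2.39 and 2.75. Thus the annotated starts of Cish and Socs3, whose windows hold the Stat5 letters, were 6.86 and 44.6 kb from the nearest peak, whereas the Il7r window lay wholly inside one.

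**Figure D2:**
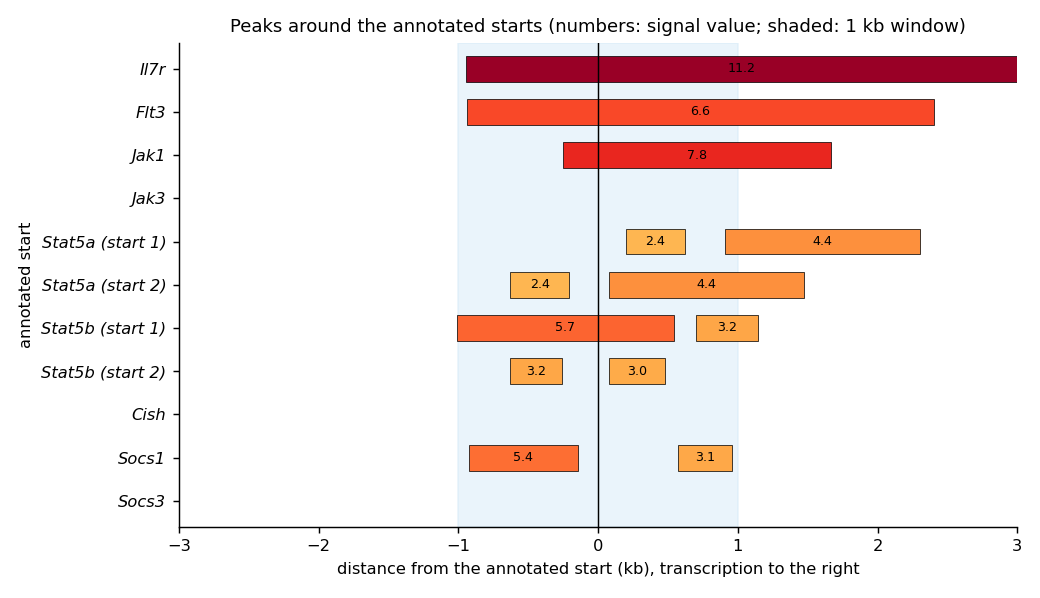
Peaks (bars) within 3 kb of the 11 annotated starts of 9 member genes, with distance from the start in kb on the x axis and the signal value written on each bar and shown by its colour; Stat5 starts are numbered from low to high coordinates. Peaks cover the starts of Il7r, Flt3, Jak1 and the first of Stat5b, flank 3 others on both sides, and are missing at Jak3, Cish and Socs3.

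Of the 11 annotated starts, 8 had a peak within 1 kb, against 37.4% of all 21262 starts of protein-coding genes. The 8 starts belonged to 6 of the 9 genes with an entry, and both Stat5a starts were counted on the same peaks. A peak covered the start base at 4 of the 8, those of Il7r, Flt3, Jak1 and a start of Stat5b. At 3 of the 8, in Stat5a, Stat5b and Socs1, peaks lay on both sides and none over the start. Over all starts with a peak, 50.8% were covered and 13.5% had peaks on both sides only. At the remaining Stat5a start, peaks lay downstream only, the nearest 200 bp away.

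The start windows also differed in CpG content, given as the observed over expected number of CpG pairs. The median over all starts was 0.567, and it was 0.806 for starts with a peak within 1 kb and 0.326 for those without. Il7r had a ratio of 0.0647, so that 93.2% of all starts had at least as much. With all starts split by this ratio into 3 groups of nearly equal size, 8.0% of the low group had a peak, against 37.7% of the middle and 66.5% of the high group. The low group held 2 member starts, that of Il7r and a Stat5a start with a ratio of 0.202, and both had a peak within 1 kb, of 11.2 at Il7r and up to 4.37 at Stat5a. The peak nearest to that Stat5a start was the weak shared one of 2.45, with q above 0.05. The peak of 4.37 was closer to the other Stat5a start. Socs3 was in the high group, with a ratio of 0.769 and no peak. Flt3 (0.647), Socs1 (0.614), Cish (0.521) and Jak3 (0.408) were in the middle group with a Stat5b start (0.421), and Jak1 (0.947) was in the high one with the other Stat5a (0.800) and Stat5b (1.01) starts.

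The 10 loci held 73 different peaks. Of these, 8 were within 1 kb of a member's end, 31 others were inside a member and 34 were in the flanks. Their signal values had a median of 3.27, the same as over the whole list, and their median width was 913 bp. A signal value of at least 4 was reached by 31.5% of them, against 33.9% of the list, and 17.8% had q above 0.05, against 21.2% of the list. Of the 34 flanking peaks, 5 lay within 1 kb of an annotated start of another protein-coding gene.

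**Figure D3:**
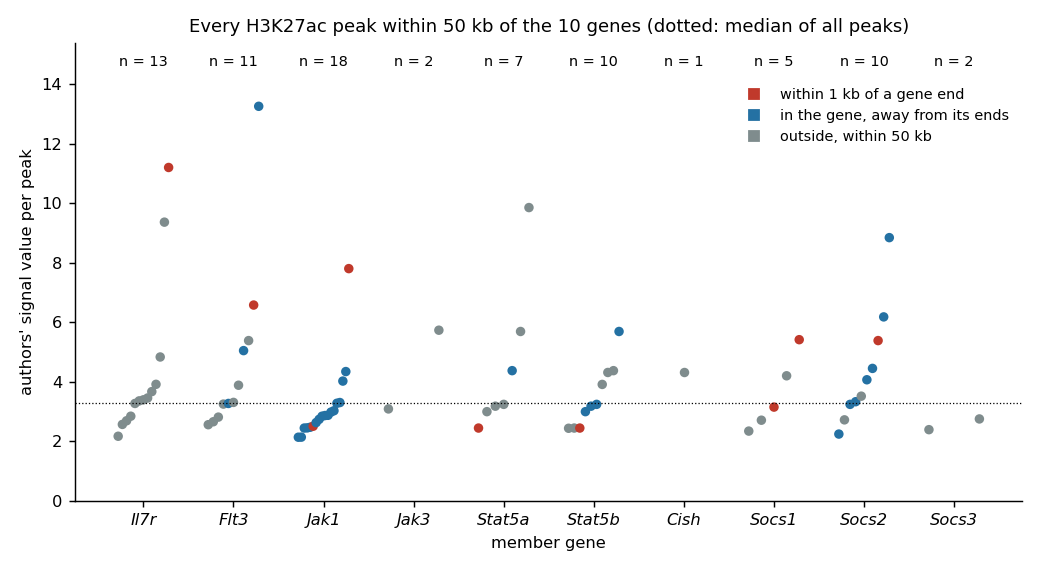
Signal value (y axis) of every peak in the gene or within 50 kb for the 10 members (x axis), coloured by place, with the median of the whole list as a dotted line; a peak near both Stat5 genes is shown at each. Flt3, Il7r, Stat5a and Socs2 reach above 8, while most of the 18 Jak1 peaks and both Socs3 peaks are below the median of 3.27.

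Distal peaks were counted as those in the gene or within 50 kb that touch neither end of that gene. Peaks at an annotated start inside the gene, or at the start of another gene, therefore count as distal. Jak1 had 16, Il7r 12, Flt3 10, Stat5b 9, Socs2 9, Stat5a 6, Socs1 3, Jak3 2, Socs3 2 and Cish 1. The median was 7.5 over the 10 members and 1 over all protein-coding genes. As many or more were found at 0.521% of all genes for Jak1, 1.15% for Il7r, 1.95% for Flt3 and 2.54% for Stat5b and Socs2. At the other end it was 44.3% of genes for Jak3 and Socs3 and 62.4% for Cish, whose counts were therefore common ones. The Stat5 counts rest largely on peaks at starts. All 4 peaks inside Stat5b lay within 1 kb of its annotated starts, and they count for Stat5a too. Other peaks counted for Stat5b lay at the starts of Stat5a and Rab5c. Counts depend on gene length, since longer genes have longer windows. Genes of 20 to 50 kb, the class of Il7r, Stat5a and Socs2, had a median of 1 distal peak and an upper quartile of 3. For genes of 100 to 200 kb, the class of Jak1, these values were 2 and 4.

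**Figure D4:**
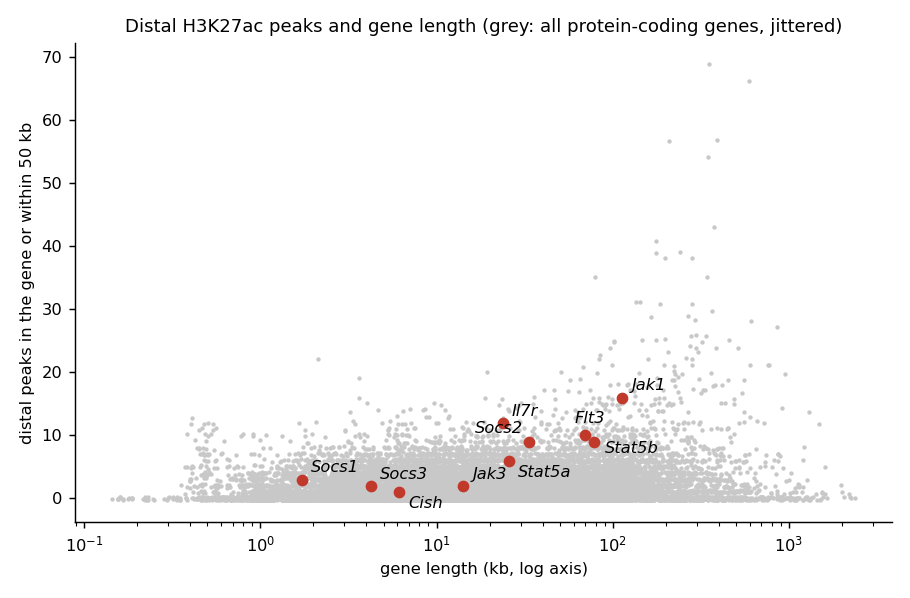
Number of distal peaks (y axis) against gene length in kb (logarithmic x axis) for all protein-coding genes in grey, jittered vertically, and the 10 members in red. Jak1 (16), Il7r (12), Flt3 (10), Socs2 (9) and Stat5b (9) lie above most genes of their length, and Cish (1), Jak3 (2) and Socs3 (2) lie among the bulk. Peaks at starts inside a gene or at starts of other genes are included, as for most of those at Stat5b.

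The count is partly set by neighbours. With each peak given only to the nearest protein-coding gene, 43 of the 73 peaks remained with a member and the median of distal peaks was 1.5. The median over all protein-coding genes under this rule is not given here, so 1.5 has no background. All 18 peaks of Jak1 and all 10 of Socs2 stayed, but only 3 of 13 did for Il7r and 4 of 11 for Flt3. Near the limit of 50 kb, the last peaks counted were at 49.96 kb for Il7r (signal value 3.67), 49.7 kb for Stat5b (2.44) and 49.2 kb for Socs1 (2.34). The first not counted were at 50.2 kb for Socs1 (2.95), 50.5 kb for Stat5b (2.89) and 51.2 kb for Il7r (1.97).

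Peaks with the summit more than 1 kb from both ends of every protein-coding gene were joined into clusters where they lay within 12 kb of each other, and the 8974 clusters were ranked by signal value multiplied by width, summed over their peaks. This rule reads the summit and the gene ends, so a peak counted above at a gene end by its edge, or near a start inside a gene, could enter a cluster. The bend of the ranked curve set 390 apart as top clusters. Such a cluster lay at 3 of the 10 loci, and at 2 when the list was limited to −log10 q of 5 or more. The share of all protein-coding genes with a top cluster is not given here, so these counts have no background. At Socs2 the top cluster held 9 peaks over 32.0 kb, the end peak chr10:95415887-95416654 among them, and ranked 73. At Il7r it ranked 161 and held 9 peaks over 39.2 kb downstream of the gene. These were 8 of the 9 downstream peaks described above and the peak 51.2 kb from the gene, without chr15:9464156-9466958, whose summit was within 1 kb of an end of Capsl. At Flt3 the single peak near the end of the gene ranked 95 on its own, and the upstream group of 7 peaks, with the peak at the Pan3 start, ranked 281. The longest Jak1 cluster, of 13 peaks, ranked 595.

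Another 49 genes of the pathway were read from a list of ligands, receptor chains, further kinases and STATs, inhibitors, adaptors and targets. A peak at an end was present at 39, or 79.6%, against 36.2% of all genes. The median of the strongest end peak was 5.05 for these 39 genes, 5.42 for the 7 members with an end peak and 4.71 for all genes with one.

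Of the 3 ligands, Il7 alone had a peak at an end, with a signal value of 6.49 (chr3:7612360-7614063). Flt3l and Tslp had none. Of the 9 receptor chains 7 had one. The strongest were at Il21r (8.19), Il15ra (7.31) and Crlf2 (7.10), which encodes a receptor chain for TSLP that pairs with the interleukin 7 receptor alpha chain. Il2rg, the common gamma chain itself, had 4.02. Il2ra and Il9r had none.

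Among the other kinases and STATs, 5 of 7 had an end peak, led by Stat6 (10.7) and Stat3 (9.80). Tyk2 and Stat4 had none, although Stat4 had 11 peaks within 50 kb, the strongest of them at 11.4. Of the 15 inhibitors 13 had one, led by Ptprc (10.8), the CD45 phosphatase that opposes JAK kinases, Cblb (6.79) and Socs6 (6.52). Pias3 and Ptpn6 had none. Socs4 (6.18), Socs7 (4.41) and Socs5 (3.68) had end peaks too, unlike Socs3 and Cish.

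All 7 adaptor and phosphoinositide 3-kinase genes had an end peak, led by Pik3ca (8.999), Shc1 (5.17) and Gab2 (5.08). Of the 8 targets 6 did, led by Mcl1 (9.09), a survival factor, Ccnd3 (5.29), the cyclin D3 gene, and Osm (4.94). Bcl2l1 and Ccnd2 had none, but Bcl2l1 had 15 peaks within 50 kb.

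**Figure D5:**
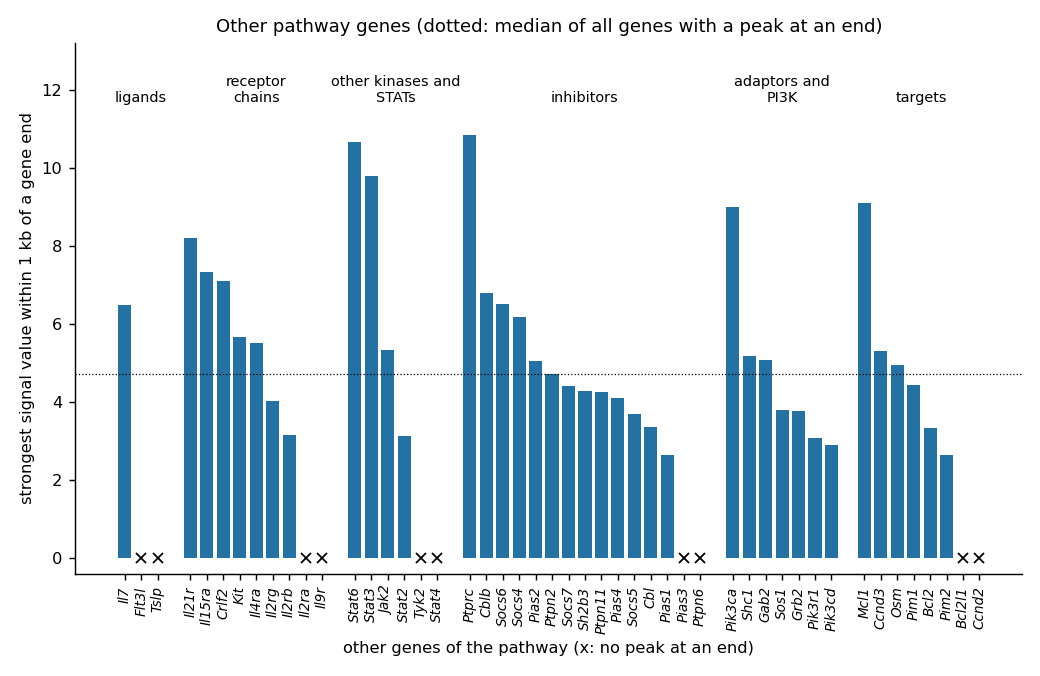
Strongest signal value within 1 kb of a gene end (bars, y axis from 0) for 48 of the 49 other pathway genes grouped by role, with crosses for genes without such a peak and the median of all genes with one as a dotted line. The 10 genes with crosses are spread over 5 of the 6 roles, and Ptprc, Stat6 and Stat3 have the tallest bars.

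Markers of the sort were checked in the same list. Of the sorting markers, Kit (5.66) and Ptprc (10.8) had a peak at an end and Ly6a, the Sca1 gene, had none. Of the stem and progenitor markers, Flt3, Slamf1 (3.21) and Cd48 (2.45) had one and Cd34 had none. Markers of other cell types that the sorted cells could hold are not covered by this check, and their part in the values at Il7r and the other genes was not tested.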

How the data were processed

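The data were 1 deposited peak list for 4 H3K27ac ChIPmentation libraries and 1 input library, all labelled Mll3/4 deleted. BWA, MACS2 and the mm10 build are named in the submitters' processing notes, without versions; settings and filters are not given in the sources used here. The list has no header and no column of a single library. Its signal value was read as the authors' fold enrichment ratio, which no label states. The authors' −log10 p and −log10 q columns and their integer score were taken as deposited; the score was not used.

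Peaks were matched by coordinates to RefSeq genes of GRCm38.p6, the same build as mm10, and to RefSeq promoter windows for start and strand. Any overlap of 1 bp counted, with windows of 1 kb at gene ends and 50 kb around genes. Counts were made with Python 3.11.15, pandas 2.3.3 and numpy 2.4.6 and checked on simulated peaks of known placement. Coordinates are 1-based. No interval is given, since 1 pooled list has no replicates and unknown depth. Members and lists were chosen with earlier results of these data known; the split of Jak1, the printed windows and the cluster and start counts were chosen after the values were seen. Named peaks are all at member ends and the 3 strongest per locus, with others added after their values were seen. Names from the wider list are, per role, the 3 strongest end peaks and genes without one; Il2rg, Socs4, Socs5 and Socs7 were added after their values were seen. The lineage markers and 1 kinase or STAT gene are not reported here. Alternatives were stricter lists, other windows, the summit rule, merged peaks and the nearest gene. Sequences under peaks other than promoter windows were not analysed here.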

Additional observations from a re-analysis of the deposited data

How the results depend on the processing

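Of 80 values recomputed under 13 settings, 68 stayed within 1.5 times the value reported, or were equal to it for the strongest peak of a locus, and 12 moved further. The 73 peaks in the loci became 24 in a list limited to −log10 q of 5 or more (the q list), 23 in one limited to signal values of 4 or more (the signal list), 48 within 25 kb, 46 after merging peaks within 1 kb and 43 with the nearest gene only. The median of 7.5 distal peaks became 2 in the q list, 2 in the signal list, 3.5 within 25 kb, 11.5 within 100 kb, 3.5 after merging and 1.5 with the nearest gene only. Members with a peak at an end numbered 4 with a window of 500 bp and 5 to 7 in the other settings. Apart from the 23.2% of genes with an end peak of signal value 4 or more, no value over all genes is given for these settings. How the members compare with other genes under them was therefore not determined. The strongest peak of each locus kept its signal value in each of the 4 settings run for it that left one, and Socs3 had none left in the q list and in the signal list. A limit on q or signal value can only keep or remove such a peak, so these equal values do not show stability. They are counted among the 68. The settings for starts and clusters were chosen after seeing the data. Single libraries could not be left out, and the unknown depth limits what the absence of a peak shows. No paired analysis was possible because all libraries share a single value per peak.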

Other observations

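Strong peaks near several of the pathway genes were nearest to another gene. This was so for the strongest peak within 50 kb at 19 of the 48 other pathway genes with any such peak, and at 4 of the 10 members. The share over all protein-coding genes is not given here, so these counts are not read as particular to the pathway. Beside Flt3l, which had no end peak, the strongest peak had a signal value of 11.9 and was nearest to Rpl13a, a ribosomal protein gene. Beside Socs4 it was 11.7 and nearest to Mapk1ip1l, beside Stat2 it was 9.37 and nearest to Pan2, and beside Jak2 it was 9.33 and nearest to Insl6. The strongest peak near Il2ra, 7.31, was the end peak of Il15ra. These genes were picked after their values were seen.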
